A study of Mus musculus with 8 samples.

Results

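The genes described here encode the material of the hair shaft: the hair keratins and the keratin-associated proteins. They were chosen by name. Every gene was taken whose array probe sets name that gene alone and whose symbol starts with *Krtap* or is one of 15 listed hair keratins (*Krt31* to *Krt36*, *Krt39*, *Krt40* and *Krt81* to *Krt86*). This gave 50 genes of 18193 with a single symbol, made up of 12 hair keratins and 38 keratin-associated proteins. *Krt39*, *Krt40* and *Krt85* were not analysed here. Expression was measured on 8 oligonucleotide arrays of whole dorsal skin of female mice of the hairless strain Hos:HR-1. For 4 arrays the skin came from mice fed for 12 weeks a diet of 2 g fish scale collagen hydrolysate (collagen cut into peptides) mixed with 100 g of the control diet. For the other 4 it came from mice fed the control diet, the purified rodent diet AIN-93G, for the same time. The mice were 9 weeks old at the start and 21 weeks old when skin was taken, and each array is labelled as a biological replicate, from a study with 8 mice on each diet.

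Hair keratins come in 2 types. An acidic type I and a basic type II chain pair to form the filaments of the hair cortex and cuticle. Keratin-associated proteins fill the space between those filaments and are linked to them through cysteines. They are grouped as high-sulfur and ultra-high-sulfur proteins, which are rich in cysteine, and as high glycine-tyrosine proteins. These genes are switched on in order as cells leave the dividing matrix of the hair bulb, so their RNA is a readout of growing hair. Hairless mouse strains lose their coat, and the labels do not say which follicle structures the dorsal skin held. In whole skin, fewer shaft-forming cells and less RNA per cell cannot be told apart.

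Each deposited value is a log2 number for 1 probe set on 1 array, and the values lay between 5.34 and 14.27. They hardly moved between arrays: the median gene had an SD of 1.18e-05 over the 8 arrays. No source used here names the summarization behind them, and differences between them cannot be read as fold changes of RNA. Values are therefore given as deviations of an array from the 8-array mean of that gene, in thousandths of a deposited log2 unit. A difference in SD units is the collagen-diet mean minus the control-diet mean, divided by the gene's pooled within-diet SD. Without calls of signal over background it cannot be said which of the genes were detected. By mean level 26 of the 50 lay above the lowest 30% of all genes, as did all 6 basal and all 6 suprabasal keratinocyte markers (*Krt5*, *Krt14*, *Krt1*, *Krt10* and others) and all 9 markers of the inner root sheath and companion layer.

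Most hair shaft genes had a higher mean on the collagen diet, and none passed the test across all genes. Of the 50 genes 43 were higher and 7 lower, where 48.1% of all genes tested were higher, and the share fell to 34 of 50 after quantile normalization and 32 of 50 after median centring (all genes, 35.6% and 10.1% higher). The median difference was 0.98 SD, against -0.04 SD over all genes. It was 0.31 SD after quantile normalization (-0.15 SD over all genes) and 0.19 SD after median centring (-0.15 SD over all genes). None of the 50 had an adjusted p below 0.05 in limma's moderated test with Benjamini-Hochberg adjustment over 18193 genes, where 0.0% of all genes did, and each had an adjusted p of 1.00. At an unadjusted p below 0.05 stood 8 of the 50, all 8 higher, against 4.63% of all genes (1.37% higher and 3.26% lower). In 7 of the 50 each of the 4 collagen-diet values exceeded each of the 4 control-diet values, against 0.808% of all genes, and in 0 the reverse held (2.81% of all genes did not overlap in either direction). Without control replicate 2 the count at an unadjusted p below 0.05 was 2 of 50 (4.0%), no larger a share than the 4.73% of all genes. Without control replicate 3 it was also 2, against 4.44% of all genes.

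**Figure D1:**
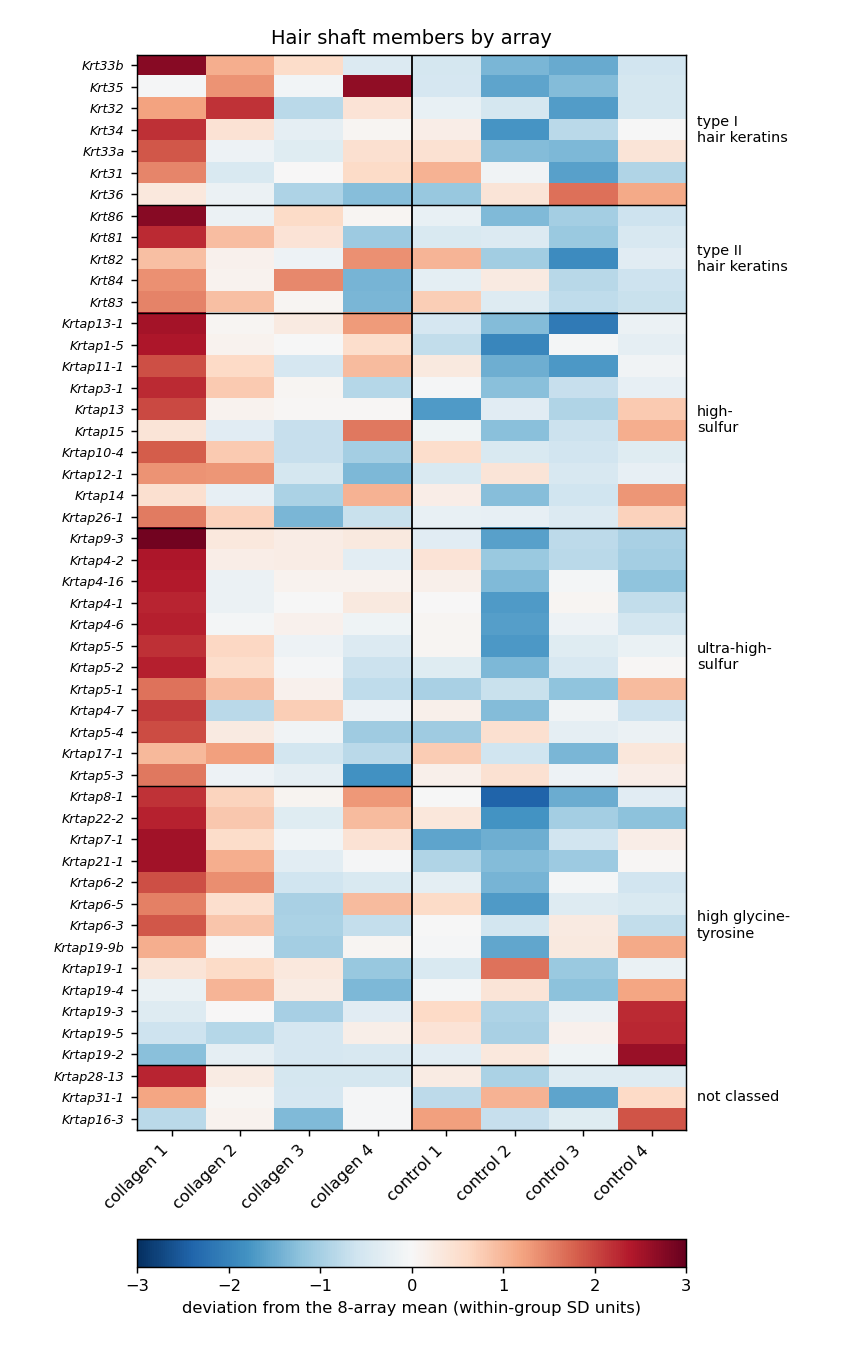
Deviation of each of the 50 genes (rows, by protein class) from its own 8-array mean in each array (columns, the 4 collagen-diet arrays left of the line and the 4 control-diet arrays right of it), in within-diet SD units by colour. Collagen replicate 1 holds the highest value in 35 genes and control replicate 2 the lowest in 23, while several *Krtap19* genes are highest in control replicate 4.

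The family did not move evenly over the arrays. Its median deviation was 1.86, 0.29, -0.15 and -0.08 SD in collagen replicates 1 to 4, against -0.03, -1.18, -0.67 and -0.23 SD in control replicates 1 to 4. Collagen replicate 1 stood apart at the top and control replicate 2 at the bottom, while collagen replicates 3 and 4 lay in the range of control replicates 1 and 4. Collagen replicate 1 held the highest of the 8 values in 35 of the 50 genes, against 16.1% of all genes, and control replicate 2 the lowest in 23 of the 50, against 11.3% of all genes. Without collagen replicate 1, 37 of 50 genes were higher and the median was 0.66 SD (43.5% of all genes higher, median -0.12 SD). Of the 50 genes 6 (12.0%) then had an unadjusted p below 0.05 (limma), against 4.68% of all genes. Collagen replicate 1 and control replicate 4 were also low in skeletal muscle RNA, with medians of -1.41 and -1.44 SD over 8 markers against 0.25 to 0.79 SD in the other 6 arrays. All 8 muscle markers were higher on the collagen diet, with 0 at an unadjusted p below 0.05. Without those 2 arrays 39 of the 50 hair shaft genes were higher (median 0.77 SD), where 44.5% of all genes were higher (median -0.11 SD).

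The largest difference in SD units belonged to *Krtap8-1* (probe set 1427211_at), which encodes a high glycine-tyrosine protein. It stood at 17.8, 5.55, 0.725 and 10.7 thousandths in collagen replicates 1 to 4, against -0.133, -19.7, -12.2 and -2.71 thousandths in control replicates 1 to 4. The diets did not overlap, although collagen replicate 3 and control replicate 1 almost met. The difference was 17.4 ± 5.51 thousandths (SE, n = 4 per diet), or 2.12 SD, with an unadjusted p of 0.0171 in limma's moderated test. This was also the largest difference of the family on the deposited scale. Its neighbour *Krtap7-1* (1432540_at), of the same protein class, stood at 8.01, 1.71, -0.261 and 1.40 thousandths on the collagen diet, against -5.01, -4.61, -1.86 and 0.63 thousandths on the control diet. Here control replicate 4 lay above collagen replicate 3, so the diets overlapped, and the difference was 5.43 ± 2.13 thousandths or 1.71 SD (unadjusted p = 0.0398, limma).

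All 13 high glycine-tyrosine genes together had 9 higher and 4 lower. After quantile normalization 8 were higher and after median centring 7 (all genes, 35.6% and 10.1% higher). *Krtap22-2* (1458467_at) stood at 4.94, 1.72, -0.775 and 2.04 thousandths on the collagen diet, against 0.726, -3.85, -2.18 and -2.63 thousandths on the control diet, a difference of 1.85 SD (unadjusted p = 0.0300, limma). *Krtap21-1* (1421691_at) stood at 1.07, 0.469, -0.133 and -0.0172 thousandths on the collagen diet, against -0.388, -0.554, -0.459 and 0.0143 thousandths on the control diet, a difference of 1.63 SD (unadjusted p = 0.0473, limma). In both genes the highest array was collagen replicate 1, and 1 control-diet array lay among the collagen-diet arrays. *Krtap6-2*, *Krtap6-5* and *Krtap6-3* differed by 1.15, 1.00 and 0.51 SD, none with an unadjusted p below 0.05. *Krtap6-5* spread widely, at 10.3, 3.51, -6.70 and 6.59 thousandths on the collagen diet, against 3.86, -11.7, -2.67 and -3.19 thousandths on the control diet.

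**Figure D2:**
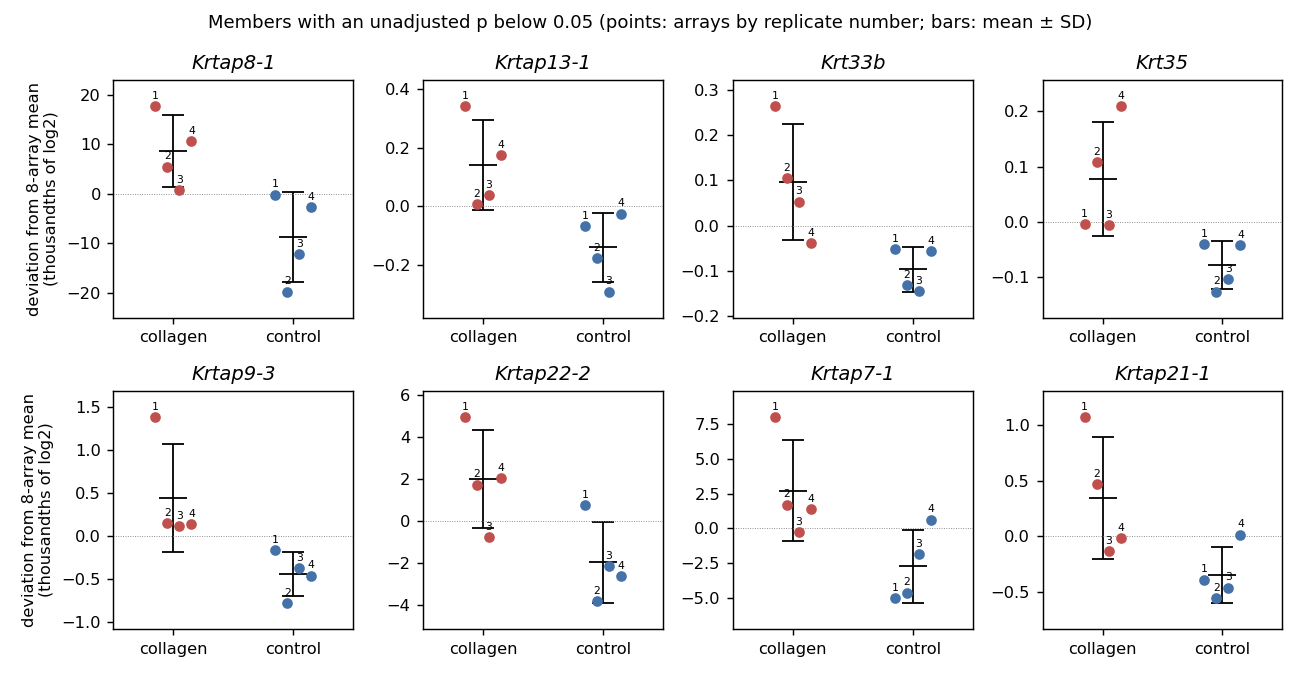
Deviation from the 8-array mean, in thousandths of a deposited log2 unit, for the 8 genes with an unadjusted p below 0.05. Points are arrays with their replicate number, bars the mean ± SD of the 4 arrays of a diet, and the scale differs between panels. *Krtap8-1* spans from -19.7 to 17.8 thousandths and *Krt35* from -0.126 to 0.210 thousandths, and collagen replicate 1 is highest in each panel but that of *Krt35*.

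Among the high-sulfur genes, whose proteins carry much cysteine, 10 of 10 were higher and their median was 0.77 SD. After quantile normalization 8 were higher, and after median centring 7 (all genes, 35.6% and 10.1% higher). *Krtap13-1* (1428007_at) stood at 0.344, 0.00807, 0.0371 and 0.175 thousandths in collagen replicates 1 to 4, against -0.0691, -0.177, -0.292 and -0.0252 thousandths in control replicates 1 to 4. No control-diet array reached a collagen-diet array, and the difference was 0.282 ± 0.0923 thousandths or 2.05 SD (unadjusted p = 0.0196, limma). *Krtap1-5* (1449560_at) did not overlap either, at 6.68, 0.303, -0.055 and 1.45 thousandths on the collagen diet, against -2.02, -5.43, -0.181 and -0.743 thousandths on the control diet. Its difference of 1.52 SD had an unadjusted p of 0.0604 (limma). *Krtap11-1* differed by 1.49 SD, *Krtap3-1*, the gene of this class with the highest mean level, by 1.11 SD and *Krtap13* by 1.07 SD. *Krtap3-1* stood at 0.380, 0.131, 0.00886 and -0.144 thousandths on the collagen diet, against -0.00417, -0.211, -0.118 and -0.0421 thousandths on the control diet, so collagen replicate 4 lay among the control-diet arrays. The other 5, *Krtap10-4*, *Krtap12-1*, *Krtap14*, *Krtap15* and *Krtap26-1*, lay between 0.10 and 0.47 SD, and none of these 8 further genes had an unadjusted p below 0.05. Proteins of the KAP10 and KAP12 families are known from the cuticle of human hair.

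The ultra-high-sulfur genes had 11 higher members of 12 and a median of 1.10 SD. After quantile normalization and after median centring 10 were higher (all genes, 35.6% and 10.1% higher). The quantile-normalized median was 0.70 SD and the median-centred one 0.19 SD. *Krtap9-3* (1449963_at) stood at 1.38, 0.147, 0.110 and 0.136 thousandths on the collagen diet, against -0.165, -0.778, -0.372 and -0.460 thousandths on the control diet. Collagen replicates 2 to 4 lay close together just above the controls and collagen replicate 1 far above them, and the difference was 1.86 SD (unadjusted p = 0.0292, limma). All 5 *Krtap4* genes were higher (4 after quantile normalization), between 0.94 SD (*Krtap4-7*) and 1.27 SD (*Krtap4-2*), each with collagen replicate 1 highest and control replicate 2 lowest. Of the 5 *Krtap5* genes, a family known from the cuticle of human hair, 4 were higher (3 after median centring), led by *Krtap5-5* at 1.11 SD and *Krtap5-2* at 1.09 SD, and *Krtap5-3* was lower at -0.32 SD. *Krtap5-1* (1450539_at), the gene of this class with the highest mean level, stood at 0.0895, 0.051, 0.00688 and -0.0417 thousandths on the collagen diet, against -0.0539, -0.0367, -0.0673 and 0.0521 thousandths on the control diet, with overlapping diets and 0.96 SD. *Krtap17-1* differed by 0.43 SD, and in this class *Krtap9-3* alone had an unadjusted p below 0.05.

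The 7 type I hair keratins, the acidic partners of the filament, had 6 higher genes and a median of 1.20 SD. Quantile normalization left 3 of them higher and median centring 5 (all genes, 35.6% and 10.1% higher). *Krt33b* (1427179_at), a keratin of the hair cortex, stood at 0.265, 0.106, 0.0531 and -0.039 thousandths in collagen replicates 1 to 4, against -0.0511, -0.132, -0.146 and -0.0564 thousandths in control replicates 1 to 4. The diets did not overlap, and the difference was 0.193 ± 0.065 thousandths or 1.99 SD (unadjusted p = 0.0222, limma). *Krt35* (1420409_at), which comes on early in the matrix and lower shaft, stood at -0.00321, 0.108, -0.00589 and 0.210 thousandths on the collagen diet, against -0.0394, -0.126, -0.103 and -0.041 thousandths on the control diet. It did not overlap either and differed by 1.95 SD (unadjusted p = 0.0243, limma), but it was highest in collagen replicate 4, and collagen replicate 1 lay near its mean. After quantile normalization the difference of *Krt35* was -0.22 SD. *Krt34* (1418742_at) stood at 3.26, 0.647, -0.412 and 0.072 thousandths on the collagen diet, against 0.296, -2.63, -1.21 and -0.0158 thousandths on the control diet, and *Krt33a* (1449387_at) at 1.60, -0.127, -0.310 and 0.409 thousandths, against 0.386, -1.11, -1.17 and 0.325 thousandths. Both overlapped between the diets, at 1.20 and 0.91 SD. *Krt32*, known from the hair cuticle, differed by 1.48 SD.

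*Krt31* and *Krt36* had the smallest differences of the type I hair keratins on the deposited scale. *Krt31* (1421589_at), a cortex keratin, stood at 0.0155, -0.0049, 0.000166 and 0.00617 thousandths on the collagen diet, against 0.0111, -0.00123, -0.0173 and -0.00957 thousandths on the control diet, with 0.80 SD and overlapping diets (-0.0937 SD after median centring and -0.0046 SD after quantile normalization). *Krt36* (1427751_a_at) was the 1 lower type I hair keratin, at 0.00012, -6.06e-05, -0.00034 and -0.000475 thousandths on the collagen diet, against -0.000419, 0.000143, 0.00061 and 0.000419 thousandths on the control diet. Its difference of -1.02 SD had an unadjusted p of 0.711 in limma, whose moderated variance for this gene was larger than its own.

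All 5 type II hair keratins, the basic partners, were higher (median 1.12 SD), and none had an unadjusted p below 0.05. After median centring 3 of the 5 were lower, *Krt82*, *Krt83* and *Krt84*, and after quantile normalization 2, *Krt82* and *Krt84*. Of all genes 10.1% were higher after median centring and 35.6% after quantile normalization. *Krt86* (1427365_at) came nearest, at 3.17, -0.205, 0.664 and 0.058 thousandths on the collagen diet, against -0.267, -1.53, -1.19 and -0.710 thousandths on the control diet, without overlap and with 1.59 SD (unadjusted p = 0.0513, limma). *Krt81* (1427290_at), like *Krt86* a cortex keratin, stood at 0.242, 0.0995, 0.0455 and -0.118 thousandths on the collagen diet, against -0.0497, -0.0449, -0.121 and -0.0528 thousandths on the control diet, and differed by 1.24 SD. Collagen replicate 4 lay among the control-diet arrays for *Krt81*. *Krt82* (1427719_s_at), the type II keratin of the hair cuticle, stood at 0.0139, 0.00207, -0.00234 and 0.0215 thousandths on the collagen diet, against 0.016, -0.0163, -0.0295 and -0.00542 thousandths on the control diet. *Krt83* (1427118_at) stood at 0.0401, 0.0245, 0.00175 and -0.0369 thousandths on the collagen diet, against 0.0197, -0.0105, -0.0207 and -0.0179 thousandths on the control diet. *Krt84* (1451551_at) stood at 0.0109, 0.000774, 0.0114 and -0.0112 thousandths on the collagen diet, against -0.00235, 0.0021, -0.00673 and -0.00493 thousandths on the control diet. These 3 genes overlapped between the diets, at 1.12, 0.55 and 0.75 SD, and collagen replicate 4 was the lowest array for *Krt83* and *Krt84*.

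**Figure D3:**
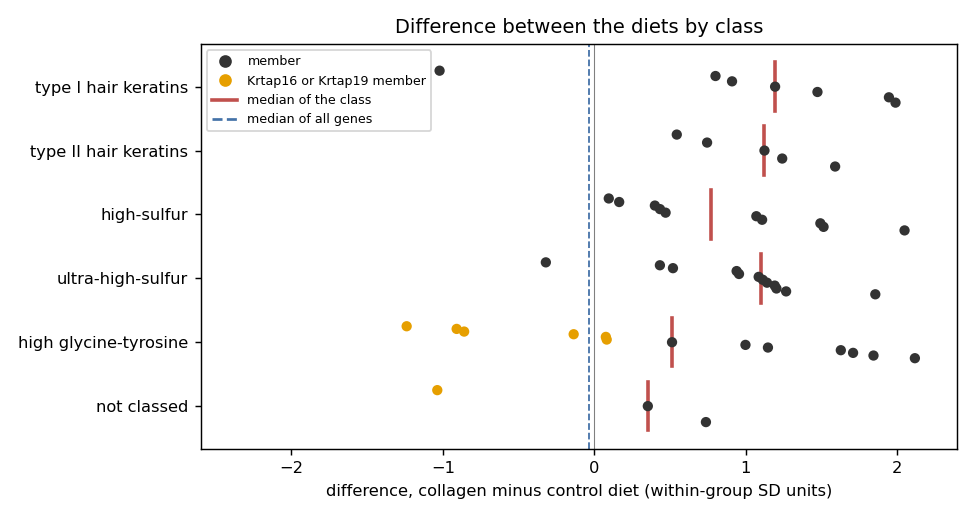
Difference between the diets, collagen minus control, in within-diet SD units for each of the 50 genes by protein class. Points are genes, red bars the median of the class and the dashed line the median of all genes at -0.04 SD. *Krtap16* and *Krtap19* genes hold 5 of the 7 lower values, and all 10 high-sulfur and all 5 type II hair keratin genes lie above 0. After median centring 7 and 2 of these do so, where 10.1% of all genes were higher.

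The genes below 0 were mostly neighbours. In the RefSeq gene order of the assembly GRCm38.p6, *Krtap19-1*, *Krtap19-2*, *Krtap19-3*, *Krtap19-4*, *Krtap19-5*, *Krtap19-9b* and *Krtap16-3* follow one another with no other protein-coding gene between them. These 7 genes were singled out after their values were seen. Of them 2 were higher and 5 lower (median -0.86 SD), while the other 43 genes had 41 higher and 2 lower (*Krt36* and *Krtap5-3*) and a median of 1.11 SD. After quantile normalization the 7 again had 2 higher and 5 lower, where 35.6% of all genes were higher. After median centring all 7 were lower, where only 10.1% of all genes were higher. *Krtap19-2* (1425655_at) stood at -0.0434, -0.00905, -0.0174 and -0.0165 thousandths in collagen replicates 1 to 4, against -0.0107, 0.0112, -0.00476 and 0.0906 thousandths in control replicates 1 to 4. Control replicate 4 was far above the rest, the diets overlapped, and the difference was -1.24 SD (unadjusted p = 0.110, limma). *Krtap16-3* (1425431_at) stood at -0.143, 0.0198, -0.233 and -0.00546 thousandths on the collagen diet, against 0.213, -0.120, -0.0617 and 0.330 thousandths on the control diet, a difference of -1.04 SD (unadjusted p = 0.169, limma). *Krtap19-5*, *Krtap19-3* and *Krtap19-4* differed by -0.91, -0.86 and -0.14 SD, and *Krtap19-9b* and *Krtap19-1* by 0.08 SD each.

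The 7 neighbours also ranked the arrays in another order than the rest of the family. Their median deviation was -0.39, 0.03, -0.50 and -0.34 SD in collagen replicates 1 to 4, against -0.03, -0.69, -0.17 and 1.89 SD in control replicates 1 to 4. Control replicate 4 held the highest value in 6 of the 7 (14.5% of all genes), and collagen replicate 1 in none of them (16.1% of all genes). Since the 7 were singled out after their values were seen, this count is no independent support for a separate pattern. In the other 43 genes the median deviation of collagen replicate 1 was 1.96 SD and that of control replicate 4 was -0.33 SD. Without control replicate 4, 3 of the 7 were higher and the median was -0.45 SD. Adjacent *Krtap14* and *Krtap15* lay between the 2 patterns, with collagen replicate 1 near their mean. All 7 lay in the lowest 30% of genes by mean level, as did 17 of the other 43. Of those 17 only *Krtap5-3* was lower, and *Krt36* lay above the lowest 30%. *Krtap19* genes are close copies of each other, so their probe sets may share signal, which was not tested.

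**Figure D4:**
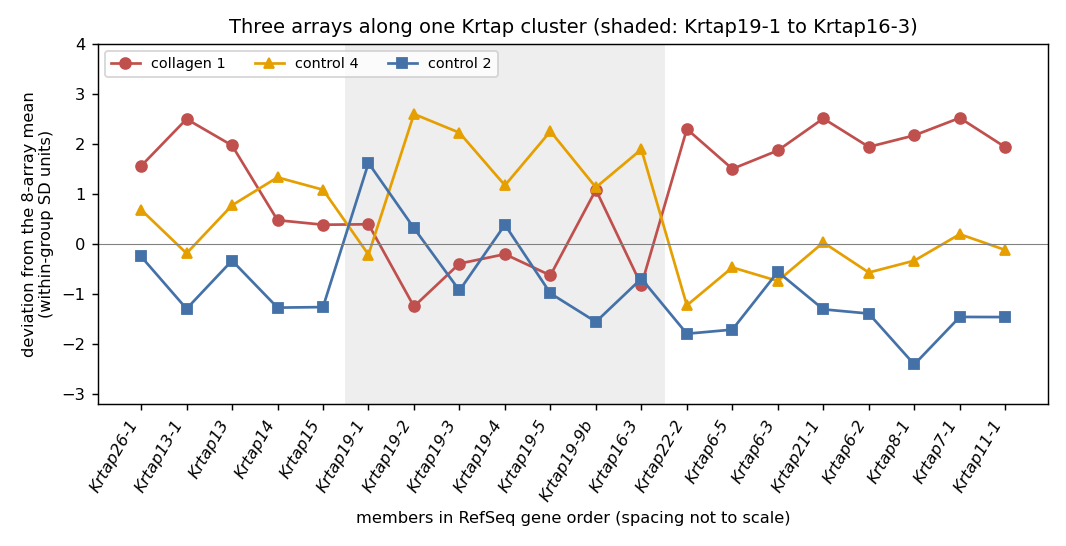
Deviation from the 8-array mean, in within-diet SD units, of 3 arrays (collagen replicate 1, control replicate 4 and control replicate 2) along the 20 *Krtap* genes of 1 cluster in RefSeq order, with equal spacing. In the shaded stretch control replicate 4 is highest of all arrays in 6 of 7 genes (14.5% of all genes) and collagen replicate 1 in none (16.1% of all genes). *Krtap19-9b* still has collagen replicate 1 at 1.09 SD, and adjacent *Krtap14* and *Krtap15* have it at 0.48 and 0.39 SD.

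Many of these genes have TATAAA, the letters of a TATA box, before their start, a sequence at which the transcription machinery can settle. RefSeq (GRCm38.p6) gave a promoter for 43 of the 50 genes. The 100 bases before the start of transcription are shown for the 6 genes with a promoter among the 8 with an unadjusted p below 0.05. They are also shown for *Krtap19-2* and *Krtap16-3*, the genes with the lowest differences in SD units, although neither had an unadjusted p below 0.05. A contrast between these groups of genes was not tested. TATAAA on the printed strand is in capitals.
Krtap8-1, chr16:89487953-89488052, minus strand: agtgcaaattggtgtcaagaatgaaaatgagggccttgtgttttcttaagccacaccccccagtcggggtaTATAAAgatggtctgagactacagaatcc
Krtap22-2, chr16:89010760-89010859, minus strand: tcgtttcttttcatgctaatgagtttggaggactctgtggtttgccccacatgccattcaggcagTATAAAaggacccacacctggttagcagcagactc
Krtap21-1, chr16:89403775-89403874, minus strand: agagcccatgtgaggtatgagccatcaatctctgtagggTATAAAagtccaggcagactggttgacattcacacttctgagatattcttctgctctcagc
Krtap13-1, chr16:88728762-88728861, plus strand: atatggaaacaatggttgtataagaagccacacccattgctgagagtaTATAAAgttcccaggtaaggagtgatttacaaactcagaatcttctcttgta
Krtap9-3, chr11:99598107-99598206, minus strand: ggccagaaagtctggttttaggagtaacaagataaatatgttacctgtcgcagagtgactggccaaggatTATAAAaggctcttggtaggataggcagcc
Krt33b, chr11:100029869-100029968, minus strand: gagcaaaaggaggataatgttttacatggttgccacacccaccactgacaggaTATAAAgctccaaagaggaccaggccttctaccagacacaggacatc
Krtap19-2, chr16:88874270-88874369, minus strand: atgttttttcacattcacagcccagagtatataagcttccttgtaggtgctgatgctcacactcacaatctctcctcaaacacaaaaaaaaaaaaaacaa
Krtap16-3, chr16:88962874-88962973, minus strand: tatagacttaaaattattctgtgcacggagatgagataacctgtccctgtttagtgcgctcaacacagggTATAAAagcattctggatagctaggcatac
TATAAA stands in each of the 6 higher genes and in *Krtap16-3*. Counted from the start, its first base is at -29 in *Krtap8-1*, -30 in *Krtap9-3* and *Krtap16-3* and -35 in *Krtap22-2*. It is at -47 in *Krt33b*, -52 in *Krtap13-1* and -61 in *Krtap21-1*. Whether any of them acts as a TATA box was not tested. These exact letters are not in the *Krtap19-2* window. That window holds the similar string TATATAAG, which the search did not count, so it was not shown to lack a TATA box.

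Over the 250 bases before the start and on either strand, TATAAA was found in 33 of 43 promoters of the family (76.7%), against 12.4% of all 32851 promoters in the RefSeq table. Within the last 50 bases and on the printed strand alone it was found in 27 of 43 (62.8%), against 2.63% of all. Of the 7 promoters of the *Krtap19-1* to *Krtap16-3* stretch 3 held it on either strand. CTTTGA, the core bound by LEF1, a factor of hair shaft differentiation, was in 13 of 43 (30.2%) on either strand, against 13.8% of all. GACGC, a core letter string of FOXN1, another such factor, was in 3 of 43 (6.98%), against 22.6% of all. CCACACCC was looked for after it had been seen in the windows of *Krtap8-1*, *Krtap13-1* and *Krt33b*. It was in 5 of 43 (11.6%), against 3.20% of all, and the 5 include those same genes. The way this motif was picked thus raised its share in the family. Matches of different motifs were allowed to overlap, and since these genes arose as copies of one another, their promoters are not independent of each other.

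Hair shaft genes also varied between arrays of the same diet more often than other genes. A pooled within-diet SD above 0.001 log2 units was seen in 10 of the 50, against 2.58% of all genes, and one above 0.0001 in 27 of the 50, against 12.3%. Such spread was not particular to them. The SD over all 8 arrays was above 0.001 in 5 of 9 inner root sheath and companion layer markers and in 8 of 8 skeletal muscle markers. It was above 0.001 in 0 of 23 shaft differentiation factors and partner proteins. The array medians differed by up to 0.369 thousandths, more than the SD of 33 of the 50 hair shaft genes and of 95.3% of all genes.

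Second probe sets gave a partial check. Of 5 further probe sets of 5 of these genes, 4 had the sign of the one used. The exception was *Krtap19-1*, whose probe sets differed by 0.08 and -0.18 SD. *Krtap16-3* was lower by both, at -1.04 and -0.63 SD, with control replicate 4 highest in both. All 6 probe sets that name several genes with a *Krtap* gene among them, which are not counted in the family, were higher. The probe set shared by *Krtap3-2* and *Krtap3-3* (1452957_at) stood at 16.5, -0.53, 1.69 and -0.0838 thousandths on the collagen diet, against -5.35, -9.14, -2.68 and -0.365 thousandths on the control diet, again with collagen replicate 1 highest. Its diets overlapped, at 1.39 SD. Members of a *Krtap* family are near-identical in places, so single genes within *Krtap4*, *Krtap5*, *Krtap6*, *Krtap9* and *Krtap19* are uncertain.

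Other genes of hair formation were listed by role. Of 23 shaft differentiation factors and partner proteins measured, 14 were higher and 9 lower (median 0.31 SD), with 10 higher after quantile normalization and 6 after median centring (all genes, 35.6% and 10.1% higher). An unadjusted p below 0.05 was reached by 2 of those higher and 1 of those lower, where 1.37% of all genes were higher and 3.26% lower. The lower one was *Hoxc13* (1425874_at), a transcription factor that binds hair keratin promoters, at -2.12 SD (unadjusted p = 0.0176, limma), without overlap between the diets. The higher ones were *Padi3* (1419767_at), which citrullinates shaft and root sheath proteins, at 1.64 SD and *Gprc5d* (1420538_at), a receptor found in keratinizing hair cells, at 1.62 SD. In the inner root sheath and companion layer, which mould the growing shaft, 9 of 9 genes were higher (median 1.28 SD; 8 after quantile normalization), led by *Krt25* at 3.07 SD, *Krt73* at 2.64 SD and *Tchh* at 2.01 SD. Their array order differed from that of the shaft genes at the top: the median deviation was 0.78, 0.66, -0.19 and 1.82 SD in collagen replicates 1 to 4, against 0.26, -1.73, -1.41 and -0.61 SD in control replicates 1 to 4. Collagen replicate 4, and not replicate 1, was the highest, as it was for *Krt35*. None of the genes in either list had an adjusted p below 0.05 (limma).

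Markers of other cells in whole skin moved with the diets as follows, and their part in the hair shaft result was not tested. Dividing-cell markers were lower in 7 of 7 (median -1.97 SD), and 5 of them had an unadjusted p below 0.05 (limma), where 3.26% of all genes were lower. After quantile normalization 6 of the 7 were lower, where 35.6% of all genes were higher. The list's median deviation lay between -1.80 and -0.51 SD on the collagen diet and between 0.62 and 2.31 SD on the control diet. Dermal papilla markers were higher in 6 of 7 (median 0.49 SD). They were higher in 3 of 7 after quantile normalization and in 1 of 7 after median centring (all genes, 35.6% and 10.1% higher). Their list medians ran from -0.09 to 0.90 SD on the collagen diet and from -0.80 to 0.00 SD on the control diet. Suprabasal keratinocyte markers were higher in 5 of 6 (0.54 SD), basal ones in 4 of 6 (0.23 SD), melanocyte markers in 3 of 5 (0.60 SD), mast cell markers in 5 of 5 (0.30 SD) and adipocyte markers in 2 of 4 (-0.18 SD). Sebaceous gland markers were higher in 1 of 5 (-0.43 SD) and T and NK cell markers in 1 of 4 (-0.31 SD). After quantile normalization the basal median was -0.30 SD and that of T and NK cell markers 0.23 SD, and after median centring the basal median was -0.12 SD; the other medians of these 7 lists kept their sign. The array ranges of the diets overlapped in each of these lists but the dividing-cell list and none of the listed genes had an adjusted p below 0.05 (limma).

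**Figure D5:**
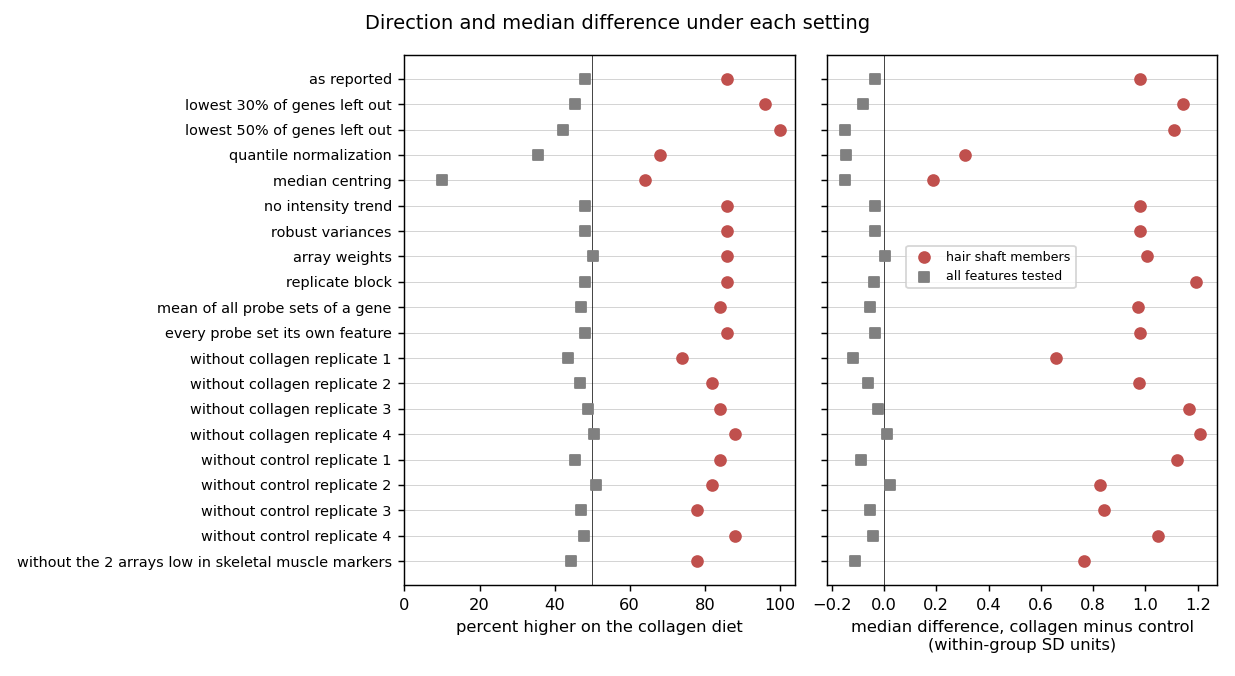
Share of genes higher on the collagen diet (left, percent) and median difference, collagen minus control diet, in within-diet SD units (right) under each setting, for the hair shaft genes (red circles) and for all features tested (grey squares). The hair shaft genes lie above all features in each setting shown, with the smallest medians after median centring (0.19 SD) and quantile normalization (0.31 SD).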

How the data were processed

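Total RNA of powdered whole dorsal skin (200 ng) was labelled with a 3' in vitro transcription kit for hybridisation, per the labels' protocols. The deposited values are log2 numbers for each array, to judge by their range, and the submitters' processing notes name R 2.7.2. The summarization and normalization steps were not given in the sources used here. Control probe sets (64 of 45101) were left out. In GEO's platform annotation, possibly outdated, 34945 of the remaining probe sets name a single gene, 932 several and 9160 none. For each of 18193 genes the probe set of highest mean was kept, with no filter on low values. The collagen diet was compared with the control diet in limma 3.58.1 under R 4.3.3, by a two-sided moderated test whose variance prior followed intensity (6 residual degrees of freedom). Signal over background was not available, and precision rests on 4 arrays per diet. The fit was tested on simulated data.

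The genes, lists and tests were chosen with earlier results of these data known. The classes of keratin-associated proteins follow family numbers as known from human genes, since no protein sequences were used, and *Krtap16*, *Krtap28* and *Krtap31* genes were left unclassed. Values of every array are given for genes with an unadjusted p below 0.05 or non-overlapping diets, the 3 highest and 3 lowest differences, the main hair keratins and the gene of highest mean level in each class. *Krtap6-5* and a shared *Krtap3* probe set were added after their values were seen. Alternatives were 2 filters on low values, 2 normalizations, 3 variance or weighting models, the replicate number as a block, other uses of probe sets, an adjusted p below 0.10 and leaving out arrays. Leaving out both arrays low in skeletal muscle markers was chosen after seeing the data. Deviations of same-numbered arrays of the diets had correlations over genes of 0.000214, 0.00594, 0.122 and -0.0317. Shared handling by replicate number was not tested.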

Additional observations from a re-analysis of the deposited data

Results flagged for a closer look

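Within a diet, 1 array stood far from the other 3 in 7 of the 100 groups of 4 arrays (50 genes on 2 diets), and chance flags about 1 in 20 such groups. The measure is the gap to the nearest array as a share of the diet's whole range. Collagen replicate 1 was the high array in 4 of them: *Krtap9-3* (0.971), *Krtap13* (0.958), *Krtap4-6* (0.902) and *Krtap4-16* (0.895). Control replicate 3 was low for *Krt81* (0.897), control replicate 4 was high for *Krtap26-1* (0.847) and collagen replicate 4 was low for *Krtap19-1* (0.854).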

How the results depend on the processing

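No hair shaft gene had an adjusted p below 0.05 in any setting, and none below 0.10 as reported; the smallest adjusted p in limma, 0.658, came without collagen replicate 4. The number higher was 25 of the 26 genes left when the lowest 30% were omitted (45.5% of all genes left). It was 7 of the 7 left when the lowest 50% were (42.3%). Non-overlapping diets were seen in 7 genes (2.81% of all genes), in 2 with the lowest 50% left out (3.64%), 4 after quantile normalization (0.0989%) and 3 after median centring (0.159%). Leaving out 1 array gave 7 to 13 such genes, where 4.62% to 6.77% of all genes did not overlap. The 13 without control replicate 1 (5.60% of all genes) were 11 higher and 2 lower. Of the 8 without collagen replicate 2 (4.62%), 7 were higher and 1 lower. In the other fits without 1 array each such gene was higher (11 without collagen replicate 3, 5.27%). Leaving out 1 array left 37 to 44 genes higher, where 43.5% to 51.1% of all genes were, and medians from 0.66 to 1.21 SD. Of 23 genes with values in every array, the sign turned after median centring for *Krt31* (-0.0937 SD), *Krt82* (-0.0353), *Krt83* (-0.0505) and *Krt84* (-0.109), and after quantile normalization for *Krt31* (-0.0046 SD), *Krt35* (-0.22), *Krt82* (-0.0631) and *Krt84* (-0.28); the cause was not tested beyond the size of the array medians. It turned for none of those tested in the other settings, which held 17 of the 23 with the lowest 30% left out, 6 with the lowest 50% left out and all 23 elsewhere. With the replicate number as a block the median was 1.19 SD and 43 genes were higher (48.1% of all genes). In that limma fit 13 had an unadjusted p below 0.05 (4.57% of all genes), against 8 without the block (4.63%). The labels do not say that the replicate numbers pair the arrays. With array weights 9 of the 50 had an unadjusted p below 0.05 (limma), against 4.996% of all genes.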
